A study of Homo sapiens with 6 samples.

Results

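Messenger RNA levels of 8 genes were examined in A673 and SKNMC, which are established Ewing sarcoma cell lines. The genes are CITED1, CITED2 and CITED4, the acetyltransferases EP300 (p300) and CREBBP (CBP), the hypoxia-inducible factor alpha subunits HIF1A and EPAS1, and their common partner ARNT. They were chosen by name, with earlier results of these data known, and all 8 are listed among the 27420 genes of the deposited table. Cells of each line, grown in serum-containing medium, received vehicle (DMSO), a low dose of THZ1 (50 nM) or a high dose (200 nM) for 6 h. THZ1 is a covalent inhibitor of CDK7, a kinase that phosphorylates the C-terminal domain of RNA polymerase II. The comparison asks how transcripts of this pathway stood after CDK7 inhibition. RNA of each of the 6 conditions was sequenced as 1 library, so there is no replicate error, no test across libraries was possible, and no p-value is given.

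HIF1A and EPAS1 each pair with ARNT on DNA and recruit p300 and CBP, which are closely related coactivators that acetylate histones, at hypoxia response elements. Prolyl hydroxylases of the EGLN family mark the alpha subunits for degradation through VHL when oxygen is present, so their activity is set largely at the protein level, which was not measured here. CITED2 binds the same domain of p300 and CBP as the alpha subunits do, limits HIF-driven transcription, and is itself a HIF target. CITED1 and CITED4 are its smaller relatives.

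Levels are FPKM, which corrects fragment numbers for transcript length and library size, and can be compared between genes. Changes are log2((FPKM + 1) of THZ1 / (FPKM + 1) of DMSO), called log2 fold changes below, and understate the change of genes with low values. A gene was taken as active above 1 FPKM with DMSO, and as lower or higher when its log2 fold change passed 1 in size, a 2-fold change. FPKM is a share of the library, so an even loss of RNA from all genes would leave no trace. Over all active genes the median log2 fold change in A673 was -0.27 (low dose) and -0.40 (high dose). The corresponding medians in SKNMC were -0.32 and -0.55. All 6 of 6 Ewing sarcoma markers (CD99, NR0B1, NKX2-2, FLI1, STEAP1 and CCND1) were above 1 FPKM with DMSO in both lines. Of the listed blood, epithelial, endothelial and muscle markers, PTPRC in SKNMC was the only one above 1 FPKM with DMSO; the summed level of the 4 blood markers there was 10.4 FPKM with DMSO, 8.09 at 50 nM and 13.3 at 200 nM, and its part in the results was not tested.

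The loci differ greatly in size. On hg19, CITED2 lies on chr6:139693392-139695757 (minus strand), a span of 2.37 kb with 2 exons in its canonical transcript. CITED4 spans 1.29 kb and has 1 exon, and CITED1 spans 5.55 kb with 3 exons. EP300 lies on chr22:41487789-41576081 (plus strand, 88.3 kb) and CREBBP on chr16:3775054-3930727 (minus strand, 155.7 kb), each with 31 exons. HIF1A lies on chr14:62162230-62214976 (plus strand, 52.8 kb, 15 exons), EPAS1 on chr2:46520805-46613836 (plus strand, 93.0 kb, 16 exons) and ARNT on chr1:150782180-150849244 (minus strand, 67.1 kb, 22 exons).

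The 250 bases before the outermost RefSeq start are shown for CITED2, the most decreased of the genes, for HIF1A, the alpha subunit with the higher level, and for the paralogs EP300 and CREBBP. They are written 5′ to 3′ on the strand of the gene, on GRCh38.p14, at chr6:139374649-139374898 (minus), chr14:61695263-61695512 (plus), chr22:41092342-41092591 (plus) and chr16:3880714-3880963 (minus). Capitals mark matches on either strand to ACGTG or GCGTG, the core of the hypoxia response element.
CITED2: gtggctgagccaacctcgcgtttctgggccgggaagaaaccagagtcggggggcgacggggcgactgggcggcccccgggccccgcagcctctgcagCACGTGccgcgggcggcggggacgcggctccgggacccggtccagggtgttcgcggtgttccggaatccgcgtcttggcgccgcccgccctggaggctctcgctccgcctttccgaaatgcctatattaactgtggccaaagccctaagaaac
HIF1A: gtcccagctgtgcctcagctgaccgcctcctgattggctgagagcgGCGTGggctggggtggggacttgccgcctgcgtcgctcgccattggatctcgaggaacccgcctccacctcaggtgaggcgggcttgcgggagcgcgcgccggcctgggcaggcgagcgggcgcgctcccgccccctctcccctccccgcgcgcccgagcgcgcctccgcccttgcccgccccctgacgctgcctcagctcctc
EP300: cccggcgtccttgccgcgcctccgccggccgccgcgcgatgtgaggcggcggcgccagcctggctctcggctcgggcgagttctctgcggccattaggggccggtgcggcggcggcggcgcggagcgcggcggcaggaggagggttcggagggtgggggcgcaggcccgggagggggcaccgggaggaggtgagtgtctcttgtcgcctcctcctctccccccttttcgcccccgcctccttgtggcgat
CREBBP: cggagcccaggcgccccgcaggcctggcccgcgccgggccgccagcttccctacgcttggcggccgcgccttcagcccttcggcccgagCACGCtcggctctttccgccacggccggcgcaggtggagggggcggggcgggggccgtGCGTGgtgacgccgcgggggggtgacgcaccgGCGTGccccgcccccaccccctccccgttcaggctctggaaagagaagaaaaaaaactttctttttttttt
CITED2 held ACGTG on both strands, within a single palindromic CACGTG (an E-box) between 153 and 148 bases before its start, and no GCGTG. CREBBP held 3 matches to GCGTG and HIF1A held 1, while EP300 had no match to either motif in this window. Among the first promoters of 27305 RefSeq genes, cut to the same length, 18.6% held ACGTG, 31.9% held GCGTG and 43.1% held at least 1 of them. A match is a run of letters, and binding was not measured. Of the other genes, CITED1 and CITED4 held 2 matches to GCGTG each, EPAS1 held 1, and ARNT held none.

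CITED2 had by far the highest level of the 8 genes with DMSO, at 182.7 FPKM in A673 and 207.6 FPKM in SKNMC. HIF1A came next, at 50.5 and 33.7 FPKM. CREBBP (12.6 and 17.4 FPKM), EP300 (11.4 and 12.6 FPKM) and ARNT (9.001 and 11.6 FPKM) followed in this order in both lines, and with 1 library each the order of these 3 cannot be set against a spread. EPAS1 was at 1.51 FPKM in A673 and 8.79 FPKM in SKNMC. CITED1 and CITED4 were lowest, at 1.43 and 0.957 FPKM in A673 and at 0.495 and 2.61 FPKM in SKNMC.

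EPAS1 was the only one of the 8 genes at least 2-fold apart between the lines with DMSO, with a log2 difference (A673 minus SKNMC) of -1.97, or 5.84 times the FPKM in SKNMC. Among 12399 genes active in at least 1 line, 23.5% were at least 2-fold apart. CITED4 had 2.73 times the FPKM in SKNMC, and CITED1 had 2.89 times the FPKM in A673, but both were at low levels and their log2 differences with 1 added were -0.88 and 0.70. The other 5 genes differed by between -0.43 (CREBBP) and 0.57 (HIF1A).

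**Figure D1:**
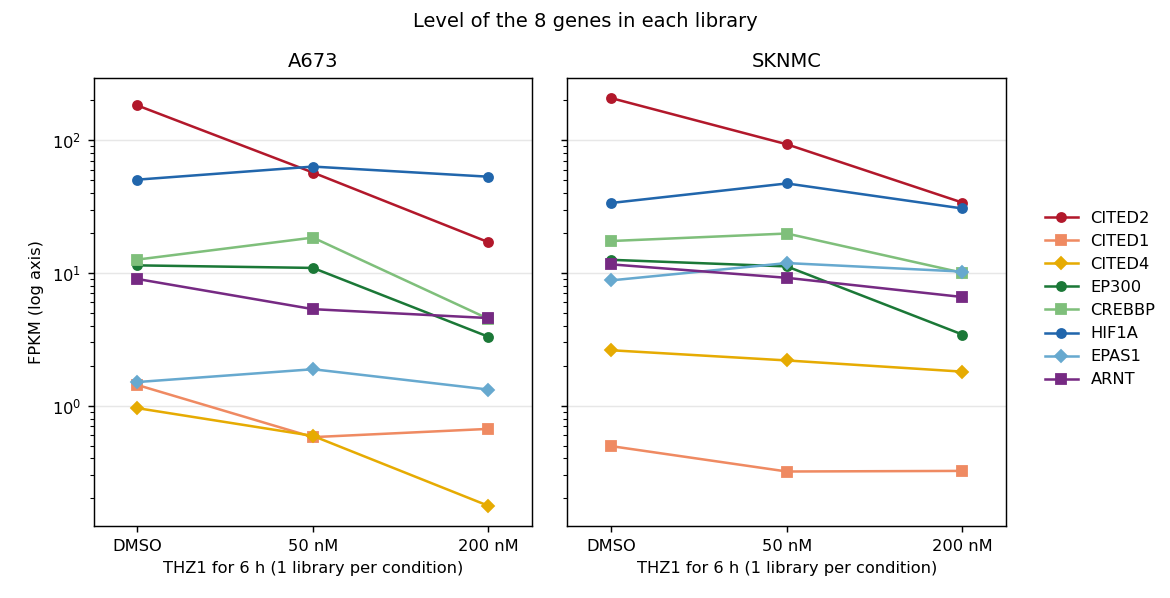
FPKM of the 8 genes (log axis) in A673 (left) and SKNMC (right) with DMSO, 50 nM THZ1 and 200 nM THZ1, each point being 1 library. CITED2 declined from 182.7 to 17.03 FPKM in A673 and from 207.6 to 33.9 FPKM in SKNMC, while HIF1A stayed between 30.6 and 63.3 FPKM.

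CITED2 was lower at both doses in both lines, and further lower at the high dose. In A673 it stood at 182.7 FPKM with DMSO, 57.1 FPKM at 50 nM and 17.03 FPKM at 200 nM, so that 31.2% and 9.32% of the DMSO level was left. In SKNMC it stood at 207.6, 93.2 and 33.9 FPKM, with 44.9% and 16.3% left. Both THZ1 libraries of each line were thus below its DMSO library, in the order of the dose. The log2 fold changes were -1.66 and -3.35 in A673 and -1.15 and -2.58 in SKNMC. At 200 nM in A673, 9 of 11077 active genes, CITED2 included, had a log2 fold change as low, and in SKNMC 87 of 11896 did. At 50 nM many more were as low, 417 genes (3.76%) in A673 and 1379 genes (11.6%) in SKNMC. Scaling to the 75th percentile of active genes gave -0.86 for CITED2 in SKNMC at 50 nM, under the 2-fold threshold, and left the other 3 values past it, between -1.41 and -2.99.

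Genes at a similar level seldom showed such decreases. In A673, 434 other genes lay within 1.5-fold of the CITED2 level with DMSO, and their median log2 fold change was 0.13 at the low and 0.15 at the high dose. Of these, 3 were as low as CITED2 at 50 nM and 0 at 200 nM. In SKNMC, 327 genes lay in this window, with medians of 0.11 and -0.027, and 7 were as low as CITED2 at 50 nM and 0 at 200 nM. The window was set on the DMSO level alone, and these shares describe genes within a pair of libraries.

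CITED1 and CITED4 were too low for a firm reading. CITED1, which lies on chrX:71521487-71527037 and was described first as a melanocyte-linked nuclear protein, was at 1.43, 0.579 and 0.668 FPKM in A673 and at 0.495, 0.319 and 0.322 FPKM in SKNMC with DMSO, 50 nM and 200 nM. Its log2 fold changes in A673 were -0.62 and -0.54. PIN4, a gene on the other strand that overlaps CITED1, was at 20.1 FPKM in A673 with DMSO, and whether the counting used the strand is not given in the sources used here. CITED4, on chr1:41326728-41328018, was at 0.957, 0.592 and 0.176 FPKM in A673 and at 2.61, 2.19 and 1.80 FPKM in SKNMC. Its log2 fold changes in SKNMC were -0.18 and -0.37, and became 0.026 and 0.024 under the 75th-percentile scaling. With a pseudocount of 0.1 in place of 1, CITED1 in A673 reached -1.17 at 50 nM, and CITED4 in A673 reached -1.94 at 200 nM.

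EP300 was close to its DMSO level at the low dose and far below it at the high dose in both lines. It stood at 11.4, 10.9 and 3.30 FPKM in A673 and at 12.6, 11.2 and 3.44 FPKM in SKNMC with DMSO, 50 nM and 200 nM. Hence 95.7% and 89.2% of the DMSO level was left at 50 nM, against 29.0% and 27.4% at 200 nM. The log2 fold changes at 50 nM were -0.059 and -0.15, and turned to 0.18 and 0.12 under the 75th-percentile scaling. At 200 nM they were -1.53 in A673 and -1.61 in SKNMC, and stayed past the 2-fold threshold under each of 3 scalings (-1.23 to -1.79 in A673, -1.15 to -2.05 in SKNMC). Relative to the median of all active genes, EP300 was at 0.21 and 0.17 at 50 nM and at -1.13 and -1.06 at 200 nM.

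CREBBP was above its DMSO level at 50 nM and below it at 200 nM. In A673 it stood at 12.6, 18.5 and 4.51 FPKM, that is, at 146.4% and 35.7% of DMSO. In SKNMC it stood at 17.4, 19.8 and 10.0 FPKM, or 113.9% and 57.7% of DMSO. The log2 fold changes were 0.52 and -1.31 in A673 and 0.18 and -0.74 in SKNMC. The value at 50 nM in A673 was 0.30 to 0.76 under the 3 scalings, while that in SKNMC turned to -0.21 when libraries were scaled to the median ribosomal protein gene. The value at 200 nM in A673 was just short of 2-fold under the 75th-percentile scaling (-0.99), and that in SKNMC passed 2-fold under the ribosomal protein scaling (-1.27).

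A direct comparison of the high with the low dose was added after the values were seen; the DMSO libraries enter it only through the choice of active genes. CREBBP at 200 nM was 24.4% of its 50 nM level in A673 and 50.7% in SKNMC, with log2 differences of -1.82 and -0.92. For EP300 these were 30.3% and 30.7%, or -1.47 and -1.46. CITED2 was at 29.8% and 36.4%, or -1.69 and -1.43. Thus 3 of 7 active members in A673 (CITED2, EP300 and CREBBP) and 2 of 7 in SKNMC (CITED2 and EP300) were at least 2-fold lower at 200 nM than at 50 nM, against 7.44% and 8.39% of all active genes.

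The summed level of EP300 and CREBBP was 24.0, 29.4 and 7.81 FPKM in A673 and 29.9, 31.0 and 13.5 FPKM in SKNMC.

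HIF1A had no 2-fold change in any comparison. It stood at 50.5, 63.3 and 53.1 FPKM in A673 and at 33.7, 47.2 and 30.6 FPKM in SKNMC. In both lines the 50 nM library had the highest value of the 3. The log2 fold changes at 50 nM were 0.32 in A673 and 0.48 in SKNMC, and were positive under each of the 3 scalings (0.094 to 0.57 and 0.077 to 0.76). At 200 nM they were 0.072 and -0.13, and the sign of each depended on the scaling: A673 gave -0.27 with the ribosomal protein scaling and SKNMC gave 0.42 with the 75th percentile and -0.71 with the ribosomal protein scaling. Relative to the median of all active genes, HIF1A was at 0.59 and 0.47 in A673 and at 0.80 and 0.41 in SKNMC. The antisense transcripts HIF1A-AS1 and HIF1A-AS2 overlap the locus on the other strand and were at 0 to 0.440 FPKM over the 6 libraries.

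EPAS1, which encodes HIF-2 alpha, also had its highest value of each line at 50 nM. It stood at 1.51, 1.88 and 1.32 FPKM in A673 and at 8.79, 11.9 and 10.2 FPKM in SKNMC. At 50 nM the log2 fold changes were 0.20 and 0.39 and were positive under each scaling (0.054 to 0.37 and 0.021 to 0.66). At 200 nM they were -0.11 and 0.20, and turned to 0.12 under the 75th percentile in A673 and to -0.34 under the ribosomal protein scaling in SKNMC. Under the 75th percentile, SKNMC gave 0.73 at 200 nM against 0.66 at 50 nM, so the highest value at 50 nM in SKNMC depended on the scaling.

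ARNT, the common partner of both alpha subunits, was below its DMSO level in all 4 THZ1 libraries, also under each scaling. It stood at 9.001, 5.33 and 4.57 FPKM in A673 and at 11.6, 9.19 and 6.59 FPKM in SKNMC, and 50.8% and 56.8% of the DMSO level was left at 200 nM. The log2 fold changes were -0.66 and -0.84 in A673 and -0.31 and -0.73 in SKNMC. These lay within the middle 50% of all active genes in each comparison. Under the ribosomal protein scaling they reached -1.13 in A673 and -1.24 in SKNMC at 200 nM.

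**Figure D2:**
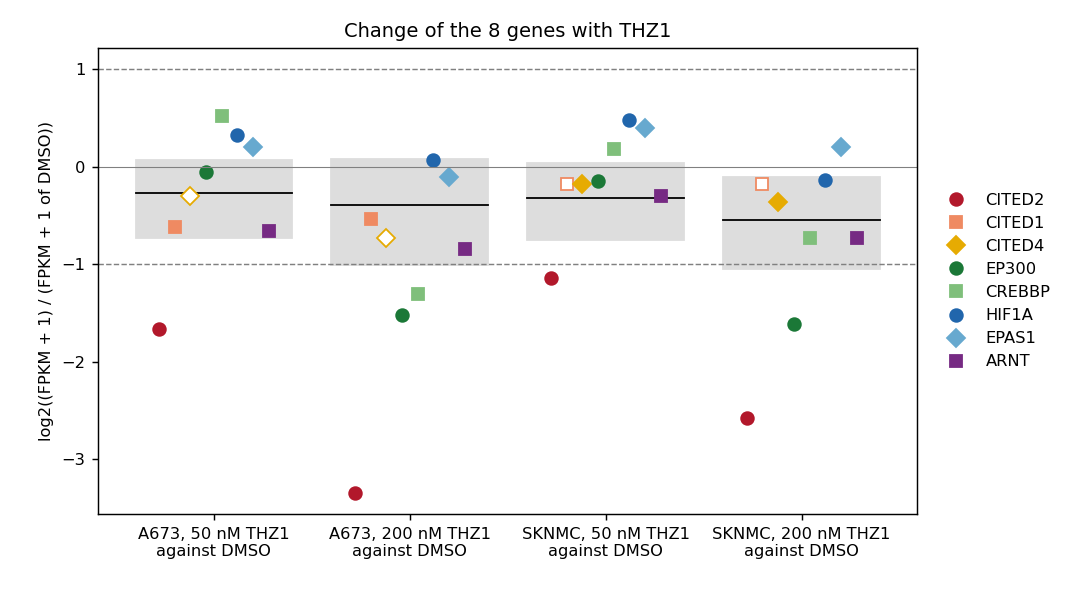
Log2 fold change of each of the 8 genes in the 4 comparisons of THZ1 with DMSO; symbols are genes (open where the gene was at or under 1 FPKM with DMSO), grey boxes span the 25th to 75th percentile of all active genes, black lines are their medians and dashed lines mark 2-fold. CITED2 lies under the lower dashed line in all 4 comparisons, and EP300 does so in the 2 at 200 nM.

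Counted together, 1 of 7 active members was at least 2-fold lower at 50 nM in A673, against 15.9% of all active genes, and 1 of 7 in SKNMC, against 15.8%; in both cases this was CITED2. At 200 nM, 3 of 7 were lower in A673 (CITED2, EP300 and CREBBP), against 25.3% of all active genes, and 2 of 7 in SKNMC (CITED2 and EP300), against 27.3%. None of the 7 was at least 2-fold higher in any comparison, where the share of all active genes was 0.343% (low dose) and 0.126% (high dose) in A673, against 0.471% and 0.462% in SKNMC. Both doses of a line share 1 DMSO library. For the active members the median log2 fold change was -0.059 (low dose) and -0.84 (high dose) in A673. It was -0.15 and -0.73 in SKNMC, and so lay above the median of all active genes at the low dose and below it at the high dose. With 7 genes these counts are descriptive.

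Ratios between genes of 1 library do not depend on how libraries are scaled. The FPKM ratio of CITED2 to HIF1A was 3.62 with DMSO, 0.902 at the low dose and 0.321 at the high dose in A673, while it was 6.17, 1.97 and 1.11 in SKNMC. HIF1A therefore overtook CITED2 in A673 at both doses and not in SKNMC. Likewise, HIF1A to ARNT was 5.61, 11.9 and 11.6 in A673 and 2.90, 5.14 and 4.65 in SKNMC, higher with THZ1 in both lines. EPAS1 to HIF1A was nearly level in A673, at 0.0298, 0.0297 and 0.0249, and was 0.261, 0.251 and 0.335 in SKNMC. EP300 to CREBBP was 0.904, 0.591 and 0.733 in A673 and 0.722, 0.565 and 0.342 in SKNMC, so CREBBP had the higher FPKM in all 6 libraries. CITED2 to EP300 dropped from 16.0 to 5.23 and 5.16 in A673 and from 16.5 to 8.32 and 9.87 in SKNMC, with most of the change at the low dose.

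**Figure D3:**
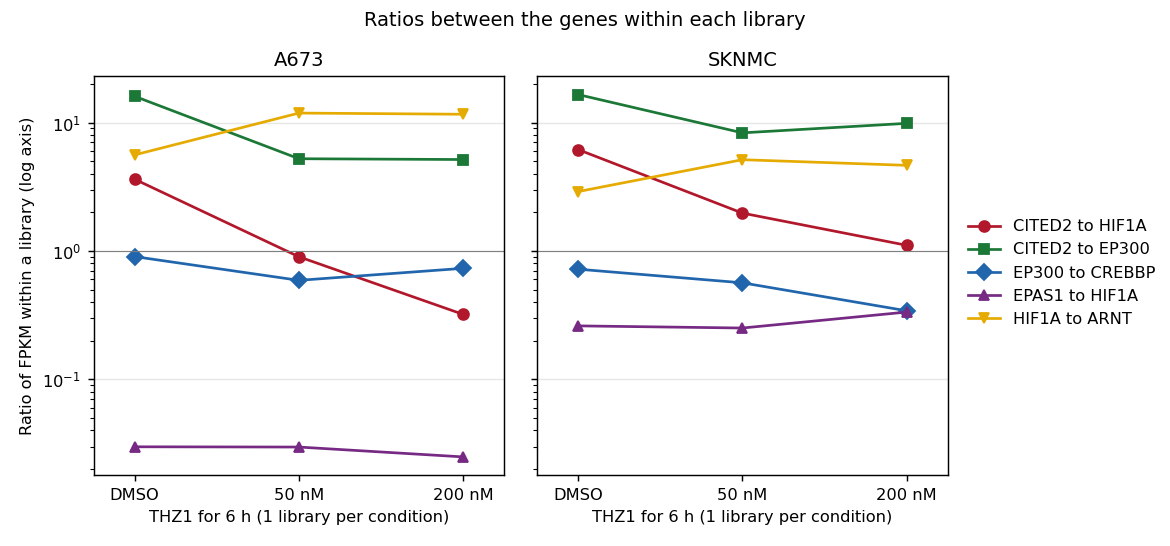
FPKM ratios between pairs of the genes within each library (log axis) in A673 (left) and SKNMC (right) with DMSO, 50 nM and 200 nM THZ1. The ratio of CITED2 to HIF1A declined from 3.62 to 0.321 in A673 and from 6.17 to 1.11 in SKNMC, and that of HIF1A to ARNT was higher with THZ1 in both lines.

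The genes with the most similar response were sought by Euclidean distance over the 4 log2 fold changes among genes that exceeded 10 FPKM with DMSO in A673 and SKNMC alike. For CITED2, 5986 genes were compared, with a median distance of 4.09. The nearest were AURKA, a mitotic kinase (distance 0.163), ATXN7L3B (0.436), ID4, an inhibitor of basic helix-loop-helix factors (0.581), RRS1, a ribosome assembly factor (0.599), and CDCA4 (0.605). AURKA went from 61.2 to 17.7 and 4.56 FPKM in A673 and from 50.9 to 21.7 and 7.92 FPKM in SKNMC. EP300 had RNF4, a SUMO-targeted ubiquitin ligase (0.104), MRPL44 (0.250) and NOP2 (0.253) as its nearest genes. CREBBP had SRFBP1 (0.300), TWISTNB (0.344) and the heme-responsive repressor BACH1 (0.373), all of them above DMSO at 50 nM and below it at 200 nM in both lines. These genes were picked on the same 4 values, so this likeness was built into the choice. The nearest to HIF1A were the stress kinase gene MAPK8 (0.135), the mitochondrial superoxide dismutase gene SOD2 (0.142) and MAP4K4 (0.151). For EPAS1 and ARNT, 10573 genes above 1 FPKM were compared. TBC1D2B (0.122), IMPAD1 (0.125) and RP4-583P15.15 (0.128) came closest to EPAS1, and the clock gene PER1 (0.122), POLR2M (0.127) and POLK (0.148) to ARNT.

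Oxygen sensing genes were examined next, as the enzymes and ligase subunits that act on the alpha subunits. Of 9 listed genes, 8 were active in each line. In A673, 2 were at least 2-fold lower at 50 nM and 3 at 200 nM, against 15.9% and 25.3% of all active genes. The counts were the same in SKNMC, against 15.8% and 27.3%, and none was at least 2-fold higher in either line. EGLN2, a prolyl hydroxylase, was at least 2-fold lower in every comparison, at 36.9, 13.7 and 10.3 FPKM in A673 and 43.97, 19.5 and 14.6 FPKM in SKNMC, although the 75th-percentile scaling left -0.86 and -0.99 in SKNMC. EGLN1, the main prolyl hydroxylase in most cells, was 2-fold lower at the high dose and not at the low dose in both lines, at 16.5, 15.2 and 6.47 FPKM in A673 and 10.0, 10.1 and 4.16 FPKM in SKNMC. CUL2, the scaffold of the VHL ligase, stood at 28.3, 17.1 and 13.5 FPKM and at 18.3, 10.9 and 6.21 FPKM. Under the 75th-percentile scaling the values at 200 nM were short of 2-fold in both lines for EGLN1 (-0.90 in A673, -0.62 in SKNMC) and CUL2 (-0.66 and -0.92). VHL was at 23.0, 16.6 and 11.4 FPKM and at 36.9, 32.2 and 22.2 FPKM, with log2 fold changes at 200 nM of -0.95 and -0.71. The remaining ligase subunits, named after their values were seen, were not 2-fold changed. TCEB2 (elongin B) was above DMSO in all 4 THZ1 libraries, at 151.0% and 165.0% of DMSO at 200 nM in A673 and SKNMC, and passed 2-fold in SKNMC under the 75th-percentile scaling (1.29). TCEB1 (elongin C) was at 106.1% and 104.7% and RBX1 at 110.8% and 91.9% of DMSO at this dose, and the sign of both depended on the scaling. EGLN3 did not exceed 0.706 FPKM in any library. The median of the active genes of the list was -0.28 and -0.93 in A673 and -0.25 and -0.72 in SKNMC. Under the 75th-percentile scaling, 1 gene in A673 and 0 in SKNMC stayed 2-fold lower at 200 nM. The share of all active genes under this scaling is not given.

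Textbook HIF target genes lay on both sides of their DMSO level. Of 30 genes, which include EGLN3 of the previous list, 23 were active in A673 and 26 in SKNMC. At 50 nM, 4 were at least 2-fold lower in A673 and 3 in SKNMC, and at 200 nM 6 were lower in each line, close to the shares of all active genes given above. None was at least 2-fold higher in any comparison. Below 0 were 10 of 23 and 15 of 23 active targets in A673 at the low and high dose, and 16 of 26 and 20 of 26 in SKNMC. The 4 genes lower in both lines at 200 nM were PFKFB3, which drives glycolytic flux (44.1 to 10.5 FPKM in A673 and 18.8 to 5.22 FPKM in SKNMC), the secreted glycoprotein gene STC2 (5.49 to 1.71 and 6.75 to 1.10 FPKM), the lipase inhibitor gene ANGPTL4 (8.19 to 1.79 and 5.63 to 1.57 FPKM) and the vasodilator peptide gene ADM (10.4 to 2.10 and 9.60 to 3.79 FPKM). In SKNMC the 75th-percentile scaling took ADM (-0.68) and, narrowly, ANGPTL4 (-0.996) below 2-fold at this dose. BNIP3L and the glycolysis genes ALDOA, PGK1 and ENO1, named after their values were seen, were above DMSO at both doses in both lines. At 200 nM their log2 fold changes in A673 were 0.38, 0.47, 0.45 and 0.39. The corresponding values in SKNMC were 0.13, 0.48, 0.14 and 0.21. The other scalings are not given for these genes. At this dose in SKNMC the ribosomal protein scaling shifted the median of all active genes by -0.47, so their signs there could depend on the scaling. The glycolysis genes LDHA and HK2, also named after their values were seen, were below DMSO at 200 nM. LDHA was at -0.065 in A673 and -0.70 in SKNMC, and HK2 at -0.48 and -0.84. VEGFA, the angiogenic growth factor, was at 22.6, 22.7 and 16.5 FPKM in A673 and 21.9, 20.5 and 16.98 FPKM in SKNMC. SLC2A1, the glucose transporter GLUT1, was at 14.1, 10.8 and 10.6 FPKM in A673 and 19.3, 14.7 and 4.70 FPKM in SKNMC, where it was 2-fold lower at 200 nM. Over the active targets the median was 0.0091 (low dose) and -0.37 (high dose) in A673, against -0.12 and -0.69 in SKNMC.

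Among 11 other lysine acetyltransferase and coactivator genes, all active in both lines, 1 was at least 2-fold lower at 50 nM in each line, and 3 in A673 and 2 in SKNMC were lower at 200 nM. The shares of all active genes were 15.9% and 15.8% at 50 nM and 25.3% and 27.3% at 200 nM. KAT5, the catalytic subunit of the NuA4 complex, accounted for the count at 50 nM, at 20.03, 7.40 and 4.25 FPKM in A673 and 21.5, 8.19 and 5.97 FPKM in SKNMC. KAT7, which acetylates histone H3 and H4, was 2-fold lower at the high dose and not at the low dose, at 19.4, 15.6 and 5.96 FPKM and at 18.7, 22.4 and 8.09 FPKM, but its value in SKNMC at 200 nM was -0.60 under the 75th-percentile scaling. KAT2A, the GCN5 enzyme of the SAGA complex, was at 15.0, 16.1 and 20.2 FPKM and at 31.6, 32.4 and 42.1 FPKM, so that the high dose gave a log2 fold change of 0.40 in each line, which turned to -0.18 in SKNMC under the ribosomal protein scaling. The medians of the list were 0.040 and -0.64 in A673 and 0.035 and -0.58 in SKNMC.

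**Figure D4:**
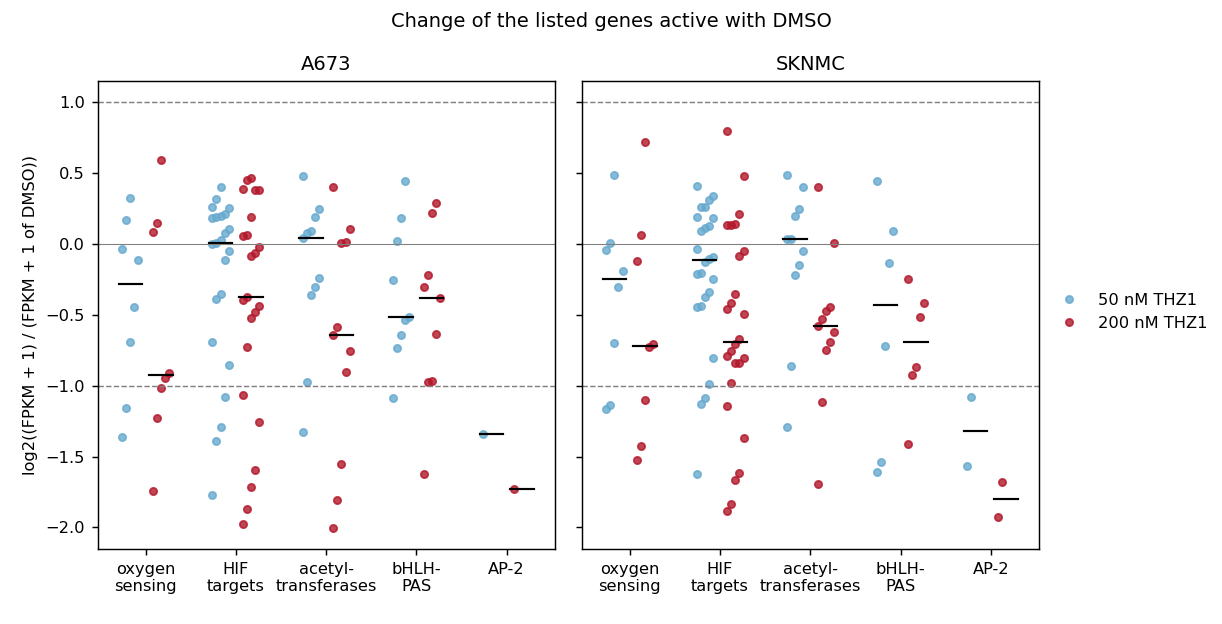
Log2 fold change of the active genes of 5 gene lists in A673 (left) and SKNMC (right) at 50 nM (blue) and 200 nM (red) THZ1; each point is a gene, short black lines are list medians and dashed lines mark 2-fold. No point lies above the upper dashed line, and the medians of the oxygen sensing, HIF target and acetyltransferase lists lie lower at 200 nM than at 50 nM in both lines.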

How the data were processed

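Paired-end TruSeq libraries were sequenced by the authors with 100-bp reads, aligned to hg19 with STAR and the Ensembl 75 annotation, and summarised with StringTie; the submitters' processing notes name STAR and Cufflinks. The deposited values are FPKM for 20311 protein-coding and 7109 lincRNA genes. The table also holds the authors' log2 fold changes, which were not used. FPKM keeps no read counts: the low values gave no clear step size, so the depth of the libraries is unknown and no counting error can be given. The columns carry the sample titles, which give line and dose. The table's title speaks of averages, while the labels give 1 library per condition.

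Fold changes were computed with a pseudocount of 1 FPKM in Python 3.11.15 with pandas 2.3.3. Of the steps, only the 2-fold call and the ribosomal protein scaling were tested on simulated data. Alternatives were a pseudocount of 0.1, no filter on low values, a filter on the mean, a 1.5-fold threshold, and scaling to a common sum, the 75th percentile or the ribosomal protein genes. Each symbol used here is listed once. Exons are those of the canonical GENCODE transcript on GRCh37, and promoters come from RefSeq on GRCh38.p14, where all 8 genes matched. From each list, up to 6 genes at least 2-fold changed in 1 direction in both lines at 200 nM were named, together with VEGFA, VHL, EGLN1, EGLN3, SLC2A1 and KAT2A and the nearest genes by response (5 for CITED2, 3 for the others). Other list genes were named after their values were seen, as stated where they appear. Members and lists were chosen with earlier results of these data known. Protein sequences were not used here.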

Additional observations from a re-analysis of the deposited data

How the results depend on the processing

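Values rest on 1 library per condition, and leaving out a library was not possible. Scaling to the 75th percentile of active genes shifted the median over active genes by 0.22 to 0.48 on the log2 scale, and scaling to the median ribosomal protein gene shifted it by -0.19 to -0.47; a common sum shifted it by at most 0.026. Which scaling is closest to RNA per cell was not tested. No member past 2-fold changed direction.

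Members at least 2-fold lower numbered 2 (pseudocount 0.1) and 3 (1.5-fold threshold) at 50 nM in A673, 0 at 50 nM in SKNMC (75th percentile), and 4 at 200 nM in SKNMC (ribosomal protein scaling, and 1.5-fold threshold). At 200 nM in A673 they numbered 2 (75th percentile) and 4 (ribosomal protein scaling, and 1.5-fold threshold), against 3 in the main setting. The matching shares of all active genes are not given, so these counts cannot be set against them. With the ribosomal protein scaling the median of all active genes at 200 nM in SKNMC was -1.02. With DMSO, a pseudocount of 0.1 put CITED1 at 1.36 and CITED4 at -1.36 between A673 and SKNMC. Over the 128 values of single members under 4 alternatives, 112 kept their sign and their side of 2-fold.

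The list counts also changed with the setting. The share of all active genes past the threshold is not given for these settings, so the counts describe no difference from other genes. Under the ribosomal protein scaling the median of all active genes at 200 nM was -0.68 in A673. In SKNMC it was -1.02, itself past 2-fold. The list counts below are those that differed by more than 1.5-fold from the main count, and counts not given could also shift. For example, HIF targets lower at 200 nM in SKNMC numbered 6 in the main setting, 9 with a pseudocount of 0.1 and 4 with the 75th percentile. With the 75th percentile, oxygen sensing genes lower numbered 1 at each dose in A673 and 0 at each dose in SKNMC. The same scaling left 0 bHLH-PAS genes at 50 nM in A673 and 0 at 200 nM in SKNMC, 1 HIF target and 1 AP-2 gene at 50 nM in SKNMC, and 1 acetyltransferase at 200 nM in SKNMC. With the ribosomal protein scaling, oxygen sensing genes numbered 5 at 200 nM in each line, HIF targets 5 at 50 nM and 15 at 200 nM in SKNMC, acetyltransferases 2 at 50 nM in each line and 5 and 7 at 200 nM in A673 and SKNMC, and bHLH-PAS genes 3 at 200 nM in each line. With a 1.5-fold threshold, oxygen sensing genes numbered 5 at 200 nM in each line, HIF targets 5 at 50 nM and 14 at 200 nM in SKNMC, acetyltransferases 2 at 50 nM in each line and 6 and 5 at 200 nM, and bHLH-PAS genes 3 (low dose) and 4 (high dose) in A673, and 3 at the high dose in SKNMC. With a pseudocount of 0.1, oxygen sensing genes numbered 5 at 200 nM in A673, acetyltransferases 2 at 50 nM in A673, and bHLH-PAS genes 3 at each dose in A673 and 2 at 200 nM in SKNMC. The cause of these differences was not tested.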

Other observations

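Relatives of HIF1A and ARNT in the bHLH-PAS family differed among themselves. Of 13 listed genes, 9 were active in A673 and 6 in SKNMC, and 1 was at least 2-fold lower at each dose in A673, against 2 at 50 nM and 1 at 200 nM in SKNMC. Of all active genes, 15.9% and 25.3% were lower in A673 and 15.8% and 27.3% in SKNMC. The bHLH-PAS genes lower at 50 nM, named after their values were seen, were CLOCK in A673 (-1.09) and AHRR (-1.61) and CLOCK (-1.54) in SKNMC. At 200 nM these were short of 2-fold with 1 FPKM added, with CLOCK at -0.97 in A673 and -0.92 in SKNMC and AHRR at -0.86 in SKNMC. Without the added 1 FPKM, CLOCK was at 37.4% of DMSO in A673 and 47.7% in SKNMC, and AHRR at 52.8% in SKNMC. AHR, the dioxin receptor that also pairs with ARNT, was, like CREBBP, above DMSO at 50 nM and below it at 200 nM, with log2 fold changes of 0.44 and -1.62 in A673 and 0.45 and -1.41 in SKNMC, the last being -0.93 under the 75th-percentile scaling. It stood at 8.35, 11.7 and 2.04 FPKM in A673 and at 13.8, 19.2 and 4.59 FPKM in SKNMC. A level above DMSO at 50 nM with at least a 2-fold decrease at 200 nM, a pattern singled out after CREBBP was seen, was found for 150 of 11077 active genes in A673 (1.35%) and 212 of 11896 in SKNMC (1.78%). CREBBP met it in A673 and not in SKNMC.

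AP-2 factors use CITED proteins as coactivators. TFAP2A was active in both lines and stood at 14.9, 5.29 and 3.81 FPKM in A673 and at 13.6, 5.91 and 3.56 FPKM in SKNMC, at least 2-fold lower in all 4 comparisons, although the value in SKNMC at 50 nM was -0.83 under the 75th-percentile scaling. TFAP2B, named after its values were seen, was at 74.9, 24.7 and 19.0 FPKM in SKNMC and did not exceed 0.361 FPKM in A673. The other 3 AP-2 genes were not active in either line.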
